A study of Mus musculus with 10 samples.

Results

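The genes described here are 9 genes of central nervous system myelin, Mbp, Mobp, Mog, Mag, Cnp, Cldn11, Mal, Ermn and Trf, measured in RNA from CD11b selected microglia of the mouse brain. They are 9 of 46152 genes counted and were listed by symbol, matched through the RefSeq gene table of GRCm38. The list was chosen with earlier results of these data known. The samples were 5 libraries from mice given vehicle (0.1% Tween 80 and 0.5% Hydroxymethyl Propyl-cellulose) and 5 from mice given GW2580, an inhibitor of CSF1R, dissolved in that vehicle at a dose of 80 mg/kg/d. All 10 mice were adult C57BL/6J mice gavaged for 8 days, with 2 males and 3 females in each group, and each library is named by its group and replicate number. Microglia were obtained by Accutase digestion, a Percoll gradient and magnetic selection for CD11b, and cDNA was made with the SMART-Seq v4 kit. The comparison asks whether these transcripts differed between the treated and the control preparations.

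Myelin is the membrane sheath that oligodendrocytes wrap around axons. Its compact layers are held together from the cytoplasmic side by myelin basic protein (Mbp) and contain the related basic protein Mobp. Claudin 11 (Cldn11) seals the layers with tight junctions, Mag and Mog are glycoproteins of the inner and the outermost surface, and Cnp and ermin (Ermn) lie in the cytoplasmic channels. Mal sorts membrane lipids and proteins, and transferrin (Trf) carries iron. Mbp and Mobp mRNAs are carried out of the cell body into the processes of the oligodendrocyte and translated there. Not all of these genes belong to oligodendrocytes alone, since Trf is also made by the choroid plexus and Mal by T cells.

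The vehicle libraries held 12550418 to 20854218 assigned fragments, with a median of 16325210, and the GW2580 libraries 13228819 to 26079343, with a median of 15792757. Values are fragment counts scaled to a common library size with TMM factors (CPM), and CPM per kilobase of counted exon (CPM/kb) where genes are compared with each other. The TMM factor was smallest in GW2580 3 (0.691) and largest in GW2580 4 (1.61). Of 17 microglia markers, 15 passed the filter of 1 CPM in at least 3 libraries, and their sum ranged from 19501 CPM in Vehicle 5 to 85947 CPM in GW2580 3. Aif1, the Iba-1 gene, had 0 counts in every library and Trem2 had 2 counts in all, and both are annotated on more than 1 sequence of the assembly. Vehicle 2 and Vehicle 5 were the top pair for 7 of the 9 myelin genes and for the summed astrocyte and neuron markers. The fold changes and gene lists below are given with and without this pair. The permutation tests and the test of sex used all 10 libraries. In bulk RNA, fewer cells of a type and less RNA per cell cannot be told apart.

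In the reference sequence, the stretch upstream of several members holds short words bound by the transcription factor families that switch on myelin genes. Sequences are shown for Mobp, which has the most such words, and for Cnp and Mag, which hold a word of both families. They come from RefSeq (GRCm38.p6), are written 5′ to 3′ on the strand of the gene, and end at the base before the first annotated base of the gene. Mobp lies on the plus strand (chr9:120149492-120149741), Cnp on the plus strand (chr11:100574689-100574908) and Mag on the minus strand (chr7:30914923-30915172). Capitals mark ACAAAG on either strand, a core of the SOX family that includes Sox10, and CTGGCAC, a word bound by Myrf.
Mobp: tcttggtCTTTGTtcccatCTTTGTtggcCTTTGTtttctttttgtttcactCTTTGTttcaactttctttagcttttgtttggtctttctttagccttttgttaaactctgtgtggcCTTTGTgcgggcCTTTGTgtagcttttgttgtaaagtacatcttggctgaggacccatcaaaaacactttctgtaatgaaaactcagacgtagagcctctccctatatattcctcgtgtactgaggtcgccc
Cnp: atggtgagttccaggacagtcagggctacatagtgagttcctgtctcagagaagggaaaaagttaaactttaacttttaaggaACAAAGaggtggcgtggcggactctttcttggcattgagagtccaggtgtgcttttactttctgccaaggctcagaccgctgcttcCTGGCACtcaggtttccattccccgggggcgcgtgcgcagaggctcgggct
Mag: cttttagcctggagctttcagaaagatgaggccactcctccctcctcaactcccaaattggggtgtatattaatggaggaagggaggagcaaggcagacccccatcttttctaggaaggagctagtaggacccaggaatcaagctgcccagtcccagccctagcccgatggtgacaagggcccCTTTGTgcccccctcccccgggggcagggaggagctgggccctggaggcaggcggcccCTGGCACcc
The Mobp stretch holds 6 copies of the SOX core, all read on the opposite strand as CTTTGT. The stretches of Cnp and Mag each hold 1 SOX core and 1 Myrf word. Mbp and Trf had no promoter entry. Of the 7 members with an entry, 4 (Cnp, Ermn, Mag and Mobp) had ACAAAG or ACAATG on either strand within 250 bases upstream, against 25.2% of 32851 promoters. Members were counted by gene, from 9 entries, and the background by entry, so the units are not alike. Another count, for CTGGCAC or CTGGTAC, gave 3 members (Cnp, Mag and Mog) against 5.93% of promoters. The words marked in these stretches do not overlap each other. These matches describe letters in a window, and binding was not measured.

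Trf was the most abundant of the 9 genes per kilobase in 9 of 10 libraries, with a median of 564 CPM/kb over all 10. Mbp followed at 33.5 CPM/kb, then Cnp at 28.3, Mag at 16.5, Mobp at 7.41, Mal at 1.72, Ermn at 0.854, Cldn11 at 0.257 and Mog at 0.0385 CPM/kb. The length used for Mog adds up its 4 annotated placements, and over its 2231 exon bases on chromosome 17 alone its median was 0.127 CPM/kb, still the lowest. Trf was above Mbp in 9 of 10 libraries, and Mbp and Cnp had no fixed order, since Mbp was the higher of the pair in 5 of 10. Cnp was above Mag in 10 of 10 libraries, whereas Mag was above Mobp in 6 of 10. In Vehicle 2 the order was different, and Mbp came first at 2100 CPM/kb.

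Counting limits the levels of Mbp and Mog. Mbp (chr18:82475091-82585637, plus strand) shares 57.8% of its 6974 exon bases with Gm52337, a gene on the opposite strand, and fragments in shared exons were not assigned to either gene because strand was not used. Its level is therefore understated. Gm52337 itself ran from 2.00 CPM in GW2580 3 to 10.3 CPM in Vehicle 2. Mog (chr17:37010740-37023398, minus strand) is annotated on chromosome 17 and on 3 alternate sequences, where reads that align to more than 1 place were left out. Among protein-coding genes, 25.8% of 1118 annotated on more than 1 sequence had no counts, against 1.79% of 20751 on 1 sequence. The low level of Mog cannot be separated from this.

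The 9 genes differed widely in how far they varied between libraries. The highest library exceeded the lowest 417-fold for Mbp, 265-fold for Mobp, 45.2-fold for Ermn, 27.6-fold for Mal, 23.8-fold for Mog and 23.0-fold for Cldn11. For Cnp, Mag and Trf the same ratio was only 9.38, 5.31 and 3.96. Vehicle 2 was highest for 5 of the 9 genes, Vehicle 5 for 3 and GW2580 3 for 1 (Trf). These vehicle libraries were the top pair for 7 of the 9 genes, with Mag and Trf as the exceptions. Of all 28419 genes tested, 13.5% were highest in Vehicle 2 and 23% in Vehicle 5. Mbp and Mobp had a highest library over 10 times their median library, as did 2.58% of all genes.

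**Figure D1:**
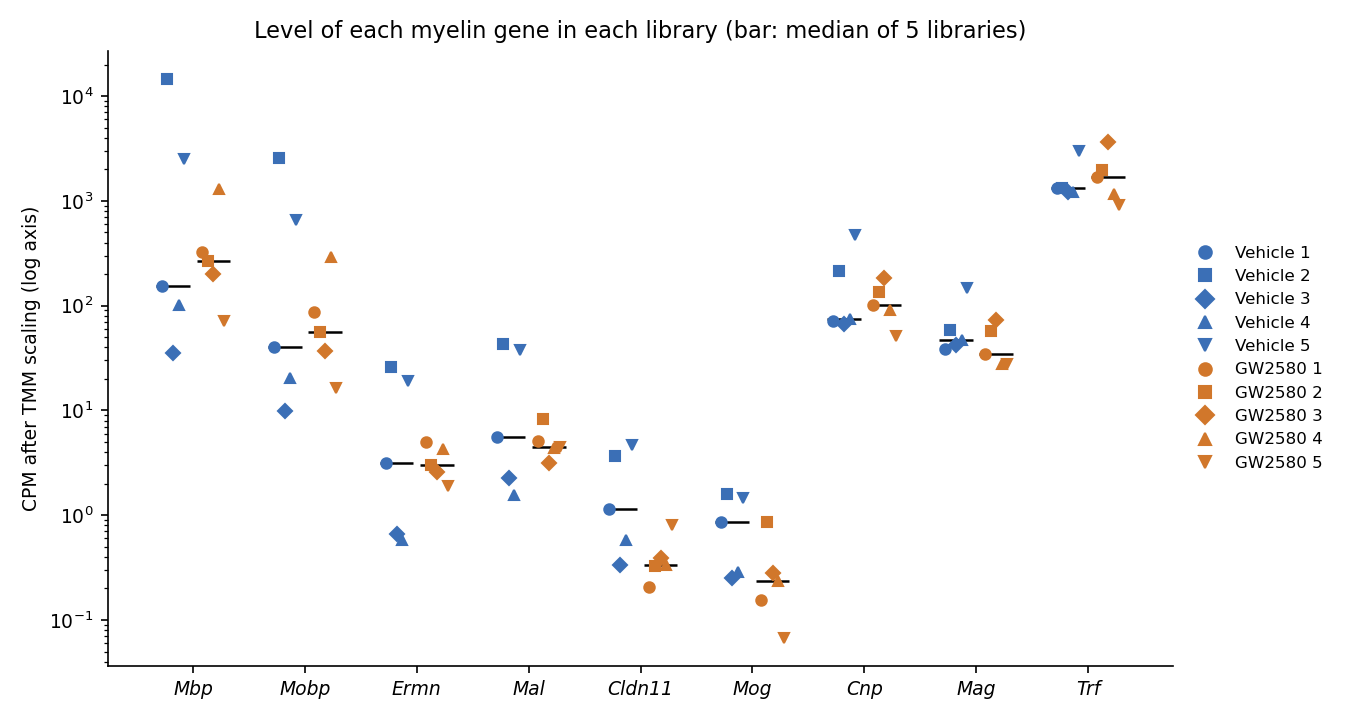
Level of each of the 9 myelin genes in each of the 10 libraries, in CPM after TMM scaling on a log axis, with 1 point per library (marker shape gives the replicate number) and a bar at the median of each group of 5. Vehicle 2 and Vehicle 5 stand far above the other vehicle libraries for Mbp and Mobp, and the groups overlap for every gene.

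With GW2580 fitted against vehicle, 4 of the 8 members tested were called lower (Mbp, Mobp, Cldn11 and Mal) and 0 were called higher, where a call is a fold change over 2 with an unadjusted p under 0.05 in edgeR's quasi-likelihood test. Over all genes tested, 6.7% were called lower and 10.7% were called in either direction. The median log2 fold change of the 8 members was −1.69, beside −0.03 for all genes, and 7 of the 8 were lower by any size, beside 51.6% of all genes. Cldn11 is part of each of these figures but passed the filter only through 3 vehicle libraries, so its direction was set by the filter. After Benjamini-Hochberg adjustment of the edgeR p-values over all genes, 0 of 28419 genes passed 0.05, with a smallest adjusted p of 0.280, whereas 4186 genes had an unadjusted p under 0.05 and 177 genes passed an adjusted 0.05 in DESeq2. In DESeq2, 0 of the 8 members passed. The groups overlapped for all 9 members. Over all genes, 3.03% had groups that did not overlap, and 0.985% had every GW2580 library below every vehicle library.

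The calls for the compact myelin genes rested on a few libraries. Mbp read 152, 14645, 35.1, 102 and 2508 CPM in Vehicle 1 to 5 and 324, 267, 199, 1303 and 70.8 CPM in GW2580 1 to 5. All 5 GW2580 libraries lay inside the vehicle range, and the GW2580 median (267 CPM) was above the vehicle median (152 CPM) although its mean was lower (433 ± 496 against 3489 ± 6324 CPM, SD, n = 5 each). The fitted log2 difference was −3.01 ± 1.36 (SE; edgeR p = 0.0439, adjusted p = 0.328), and an exact permutation test (two-sided, over every division of the 10 libraries into 5 and 5) gave p = 0.698. Without Vehicle 2 it was −0.68 and no longer called. The call was also lost, at nearly the same size, without GW2580 1 (−2.90), GW2580 2 (−2.87), GW2580 3 (−2.82) or GW2580 5 (−2.83).

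Mobp gave the same picture at a lower level. It read 40.0, 2586, 9.77, 20.2 and 652 CPM in Vehicle 1 to 5 and 87.4, 56.2, 37.2, 293 and 16.5 CPM in GW2580 1 to 5. Vehicle 2, Vehicle 5 and GW2580 4 were again the 3 highest libraries, in the same order as for Mbp. The log2 fold change was −2.75 ± 1.28 (SE; edgeR p = 0.0496, adjusted p = 0.339), with an exact permutation p = 0.659. It was −0.87 without Vehicle 2, −2.70 without GW2580 1, −2.60 without GW2580 2, −2.54 without GW2580 3 and −2.56 without GW2580 5, and each of these lost the call.

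Cldn11 and Mal, the junction and sorting genes, were low in both groups. Cldn11 read 1.15, 3.64, 0.334, 0.574 and 4.72 CPM in Vehicle 1 to 5 and 0.205, 0.329, 0.389, 0.331 and 0.812 CPM in GW2580 1 to 5, from 4 to 84 counts. It passed the filter only through 3 vehicle libraries, so a gene that passed in this way had to be higher with vehicle. Its log2 fold change was −2.34 ± 0.71 (SE; edgeR p = 0.00509, adjusted p = 0.280), with an exact permutation p = 0.0556, and it was not tested without Vehicle 1, Vehicle 2 or Vehicle 5, where it no longer passed the filter.

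Mal read 5.56, 42.8, 2.26, 1.55 and 37.6 CPM with vehicle and 5.08, 8.24, 3.17, 4.40 and 4.47 CPM with GW2580, in the same order of replicates. Here too all 5 GW2580 libraries lay inside the vehicle range. The log2 fold change was −1.82 ± 0.77 (SE; edgeR p = 0.0335, adjusted p = 0.308), with an exact permutation p = 0.468. It passed the threshold neither without Vehicle 2 (−1.21) nor without Vehicle 5 (−1.36). The call was likewise lost without GW2580 1 (−1.81), GW2580 3 (−1.69), GW2580 4 (−1.77) or GW2580 5 (−1.83).

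Of the surface glycoproteins, Mag was not called and Mog was too low to test. Mag read 38.3, 58.1, 41.9, 47.4 and 148 CPM with vehicle and 34.6, 57.6, 73.6, 27.8 and 28.0 CPM with GW2580. Vehicle 5 was the high library, and 3 of the GW2580 libraries lay below every vehicle library. Its log2 fold change was −0.59 ± 0.44 (SE; edgeR p = 0.200, adjusted p = 0.533; exact permutation p = 0.325), and without Vehicle 5 it was −0.07. Mog had 12, 23, 3, 5 and 26 counts with vehicle and 3, 13, 5, 5 and 1 with GW2580. Only Vehicle 2 and Vehicle 5 exceeded 1 CPM, so it was not tested in the fit, and its exact permutation p was 0.0714. In the fit with no filter on low counts it was called lower (log2 −1.49, edgeR adjusted p = 0.383).

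Of the cytoplasmic proteins, Cnp read 71.3, 215, 67.1, 74.5 and 477 CPM with vehicle and 101, 135, 182, 89.8 and 50.8 CPM with GW2580. Its log2 fold change was −0.70 ± 0.57 (SE; edgeR p = 0.239, adjusted p = 0.569; exact permutation p = 0.635), and without Vehicle 5 it was 0.06. Ermn read 3.18, 26.0, 0.668, 0.574 and 19.2 CPM with vehicle and 4.98, 3.03, 2.56, 4.31 and 1.90 CPM with GW2580. Vehicle 3 and Vehicle 4 were below every GW2580 library, and Vehicle 2 and Vehicle 5 were above every one. Its log2 fold change was −1.56 ± 0.84 (SE; edgeR p = 0.0829, adjusted p = 0.391; exact permutation p = 0.786). It passed the threshold without Vehicle 3 (−1.86) or without Vehicle 4 (−1.87), and was smaller and not called without Vehicle 2 (−0.81) or without Vehicle 5 (−1.17).

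Trf, the iron carrier, did not share the pattern. It read 1317, 1315, 1210, 1226 and 3016 CPM with vehicle and 1704, 1962, 3635, 1168 and 918 CPM with GW2580. In Vehicle 2, where Mbp reached its highest value, Trf was at the level of the other vehicle libraries. Its log2 fold change was 0.22 ± 0.47 (SE; edgeR p = 0.654, adjusted p = 0.850; exact permutation p = 0.722), and −0.17 without GW2580 3.

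Without both Vehicle 2 and Vehicle 5, none of the members was called lower and all 7 tested were higher with GW2580 by some size. Mbp was then at 2.15 ± 0.82 (log2, SE; edgeR adjusted p = 0.351), Mobp at 2.06 ± 0.79 (adjusted p = 0.351) and Ermn at 1.18 ± 0.55 (adjusted p = 0.355), which met the call rule in the opposite direction. Mal (0.69), Cnp (0.64), Trf (0.57) and Mag (0.05) were not called. In that fit 8.5% of all genes were called in either direction, 3.42% lower and 1397 of 27463 higher, and 45.6% were lower by any size. This removal takes away the highest vehicle libraries for 7 of the 9 genes and no GW2580 library, so it shows how far the direction rested on them and is not a test of an increase.

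**Figure D2:**
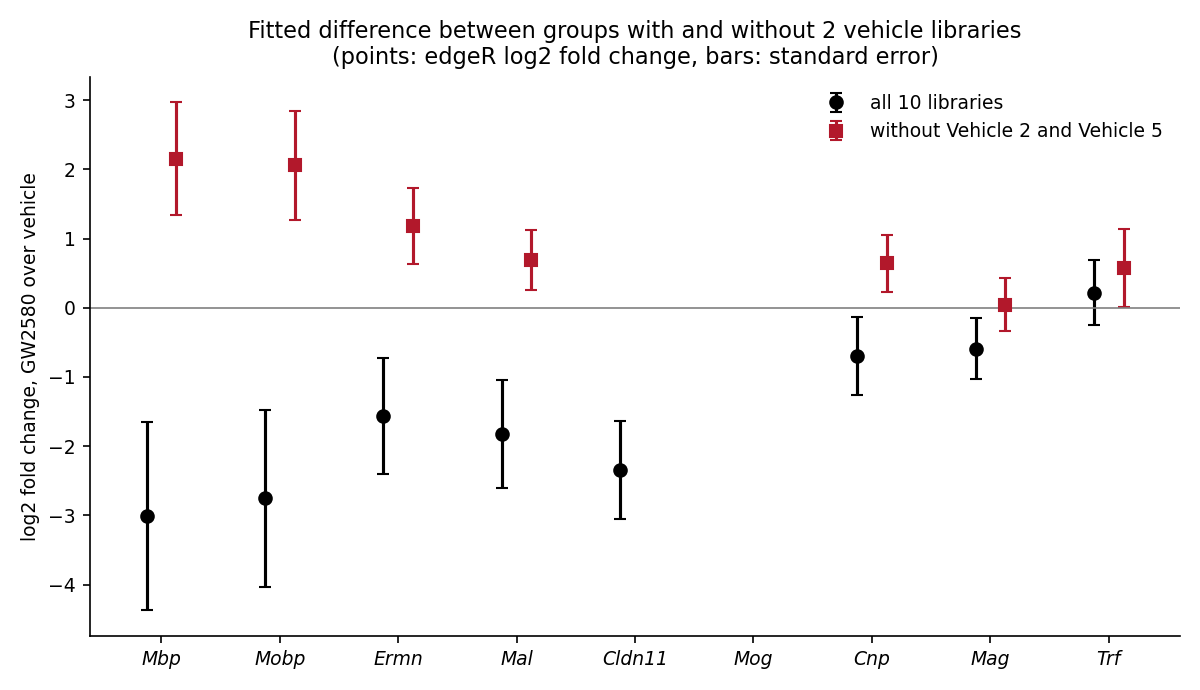
Fitted log2 fold change of each member, GW2580 over vehicle, from all 10 libraries (black circles) and without Vehicle 2 and Vehicle 5 (red squares), with bars for the standard error. Mbp moves from −3.01 to 2.15 and Mobp from −2.75 to 2.06, Mog has no value in either fit, and Cldn11 has none without the pair of libraries because it no longer passed the filter.

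None of the 8 members tested passed the test of sex by treatment. The smallest interaction p was 0.151, for Mbp, where the log2 fold change was −4.65 in males and −0.75 in females (edgeR, adjusted p = 1.00). Vehicle 2 is 1 of only 2 vehicle males.

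The members also differed in their share of the total. The 9 genes summed to 18893 CPM in Vehicle 2, which was 1.65% of all assigned fragments, and to 6864 CPM in Vehicle 5, against 1091 to 4133 CPM in the other 8 libraries. Mbp alone made up 77.5% of the sum in Vehicle 2 and 45.1% in GW2580 4. Trf made up 88.5% of the sum in Vehicle 3 and 87.9% in GW2580 3 but 6.96% in Vehicle 2, 43.9% in Vehicle 5 and 40.4% in GW2580 4.

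**Figure D3:**
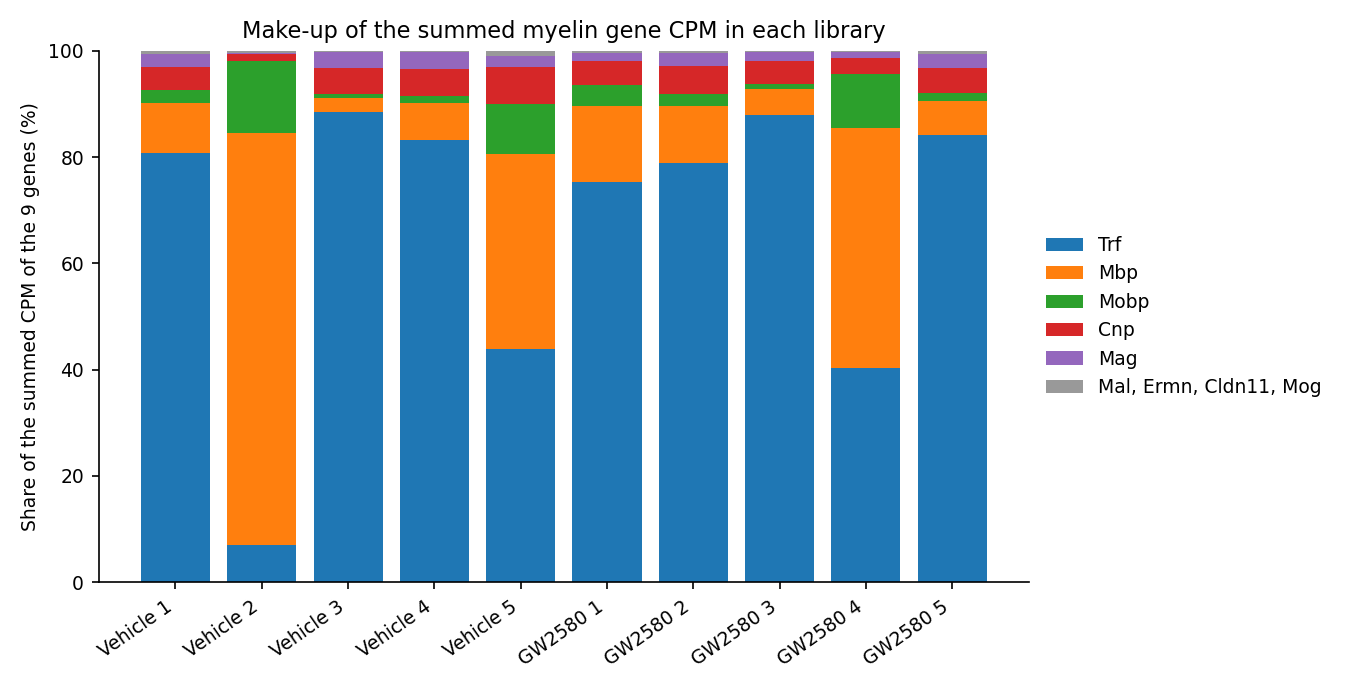
Share of each gene in the summed CPM of the 9 myelin genes, in percent, with 1 stacked bar per library. Trf fills most of the bar in 7 libraries, and Mbp has its largest shares in Vehicle 2 (77.5%), GW2580 4 (45.1%) and Vehicle 5 (36.5%).

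Ratios of counts within a library do not depend on its depth or scaling factor. Mbp to Mobp was nearly fixed, between 3.59 in Vehicle 3 and 5.66 in Vehicle 2, while Mbp itself varied 417-fold. Mbp to Cnp ran from 0.523 in Vehicle 3 to 68.1 in Vehicle 2, with GW2580 4 next at 14.5. Mbp to Sox10, the transcription factor of the oligodendrocyte lineage, was 2433 in Vehicle 2 and 688 in GW2580 4, but 133 in Vehicle 5, where Sox10 was at its highest (18.8 CPM), and 17.5 in Vehicle 3.

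The ratio of Trf to Tmem119, a defining microglia gene, was between 0.270 and 0.434 in 9 libraries and 1.11 in Vehicle 5. Against the summed microglia markers Trf ran more widely, from 0.0170 to 0.0476 in those 9 libraries, and was 0.155 in Vehicle 5. Across the 10 libraries, the Pearson r of log2 CPM with Tmem119 was 0.55 for Trf and between −0.54 and 0.12 for the other 8 members. Without Vehicle 2 and Vehicle 5 it was 0.92 for Trf, 0.87 for Cnp and 0.84 for Mag, and between −0.39 and 0.09 for the other 6. These are descriptions over few libraries, each gene being scaled by the same library factor.

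**Figure D4:**
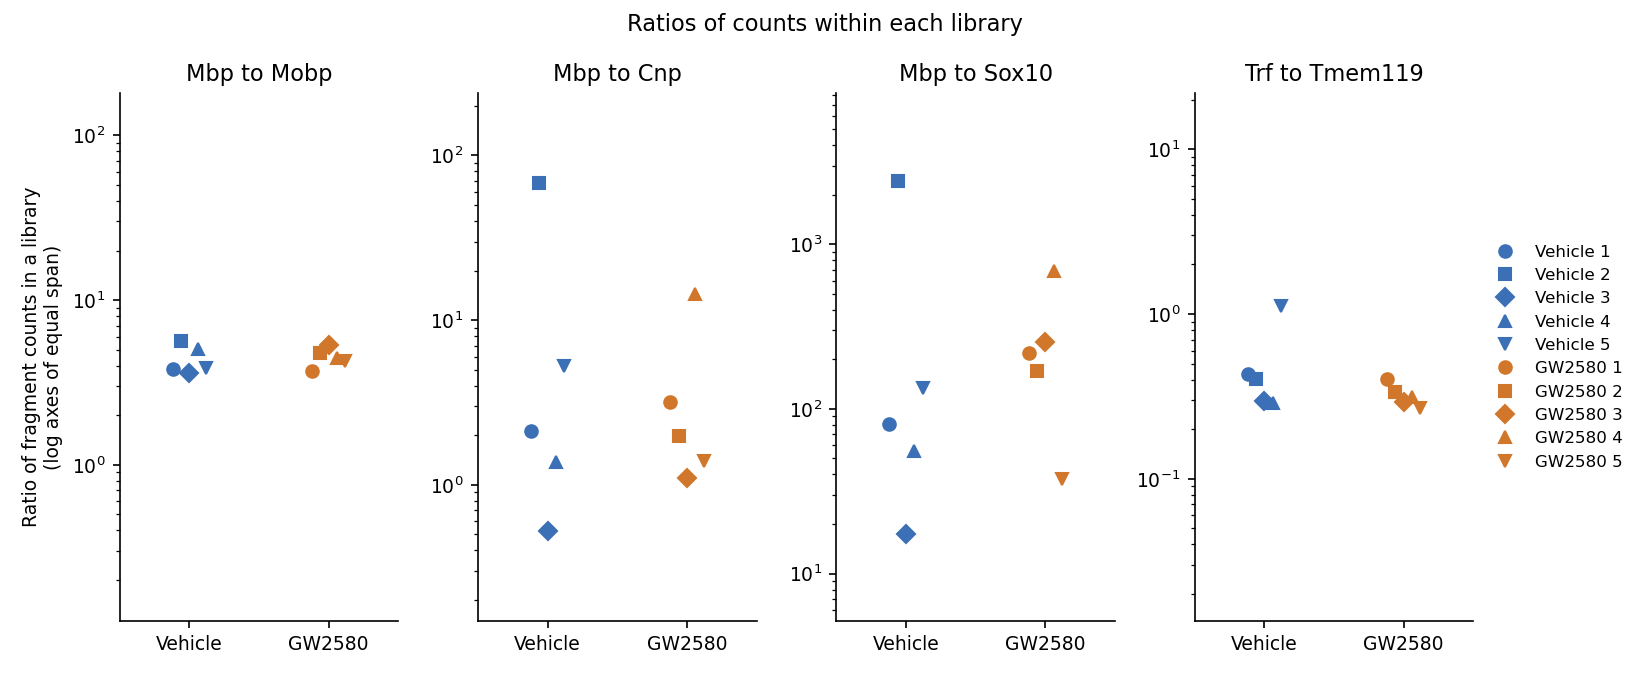
Ratio of fragment counts in each library for Mbp to Mobp, Mbp to Cnp, Mbp to Sox10 and Trf to Tmem119, on log axes that all span the same number of decades, with 1 point per library. Mbp to Mobp stays between 3.59 and 5.66, Mbp to Sox10 spreads from 17.5 to 2433, and Trf to Tmem119 has Vehicle 5 apart at 1.11.

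Other genes of the lineage were read from the same fit, from lists of genes outside the 9 members. Of 40 other mature oligodendrocyte genes, 39 were tested, 18 were called lower and 0 higher, with a median log2 fold change of −1.39, beside 6.7% of all genes called lower and a median of −0.03. Without Vehicle 2 and Vehicle 5, 1 of 38 was called lower and 5 higher, with a median of 0.16, beside 3.42% of all genes called lower and a median of 0.07. Over all genes in that fit, 1397 of 27463 were called higher. Tppp3 was the 1 gene of the list called lower there (−1.68, edgeR adjusted p = 0.351), and it was at −2.37 with all 10 libraries. Plekhb1 (−2.66) was at 812 CPM in Vehicle 2 and 201 CPM in Vehicle 5, and its log2 CPM had r = 0.996 with that of Mbp. Like Mbp it was at 1.83 without the pair of libraries. Opalin (−2.97), an oligodendrocyte membrane protein, was at 30.0 CPM in Vehicle 2 and 13.1 CPM in Vehicle 5. Enpp2 (−3.81), which the choroid plexus also makes, was at 40373 CPM in Vehicle 5 and 441 CPM in Vehicle 2, and it carried most of the sum of that list in Vehicle 5 (44259 CPM). Opalin was at −0.49 and Enpp2 at 1.81 without the pair.

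Of 9 lineage transcription factors, 4 were called lower and 0 higher, again beside 6.7% of all genes called lower: Sox10 (−2.0), Olig2 (−2.19), Nkx2-2 (−1.21) and Nkx6-2 (−1.78). Sox10 stayed between 0.778 and 2.00 CPM outside Vehicle 2 (6.02 CPM) and Vehicle 5 (18.8 CPM). Without that pair, Nkx2-2 (−1.14) was the only 1 of the 9 called lower, and Olig1 (1.88) was called higher. Of all genes in that fit, 3.42% were called lower and 1397 of 27463 higher. Sox10 was then at −0.33, Olig2 at 0.04 and Nkx6-2 at 0.22. Of 9 oligodendrocyte precursor genes, only C1ql1 was called (−1.54), and their median was −0.55. C1ql1 was at 4.90 CPM in Vehicle 2 and 3.88 CPM in Vehicle 5, and without the pair it no longer passed the filter. Its call was therefore not tested again, and of the 7 precursor genes still tested 0 were called, beside 8.5% of all genes. Of 7 peripheral myelin genes, made by Schwann cells, 5 were tested and 0 called. Their sum was 6.63 to 20.8 CPM, with the lowest value in Vehicle 5, and Foxd3 had 0 counts.

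Astrocyte and neuron markers were highest in the libraries that led for Mbp, and endothelial and mural markers in Vehicle 5 alone. The part of these markers in the results was not tested. The 14 astrocyte markers summed to 3819 CPM in Vehicle 2, 2779 CPM in Vehicle 5 and 793 CPM in GW2580 4, the same 3 libraries that led for Mbp, against 228 to 402 CPM elsewhere. All 14 were tested, 7 were called lower, and none was at 0. The 14 neuron markers summed to 1637 CPM in Vehicle 2, 294 CPM in Vehicle 5 and 264 CPM in GW2580 4, against 80.1 to 114 CPM elsewhere. Of these markers, 13 were highest in Vehicle 2, beside 13.5% of all genes. For neurons 4 of 14 were called lower, and for endothelial and mural cells 2 of 14, beside 6.7% of all genes, with a sum of 816 CPM in Vehicle 5 and 112 to 164 CPM elsewhere. Without Vehicle 2 and Vehicle 5, none of these 3 lists had a gene called lower, and 3 astrocyte and 4 neuron markers were called higher. Over all genes in that fit, 3.42% were called lower and 1397 of 27463 higher.

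The choroid plexus markers followed Vehicle 5 and not Mbp. They summed to 29514 CPM in Vehicle 5, 3583 CPM in GW2580 5 and 3073 CPM in Vehicle 2, against 197 to 1793 CPM elsewhere. Of 9 markers, 8 were tested, and all 8 were called lower and were highest in Vehicle 5. Of all genes, 6.7% were called lower and 23% were highest in Vehicle 5. Without the pair 0 were called lower and 2 higher (Clic6, 1.53, and Cldn2, 1.04), beside 1397 of all 27463 genes called higher. Vehicle 5 had the second highest Trf (3016 CPM), after GW2580 3 (3635 CPM), where the choroid plexus sum was 834 CPM. GW2580 5 had the lowest Trf of all libraries (918 CPM), and GW2580 4, with the lowest choroid plexus sum (197 CPM), had 1168 CPM of Trf. Whether choroid plexus RNA added to Trf was not tested. Of 17 microglia markers, 15 were tested, 0 were called lower and Cx3cr1 was called higher (1.14), which was 1.00 and not called without the pair, where Itgam (1.44) was called higher instead.

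**Figure D5:**
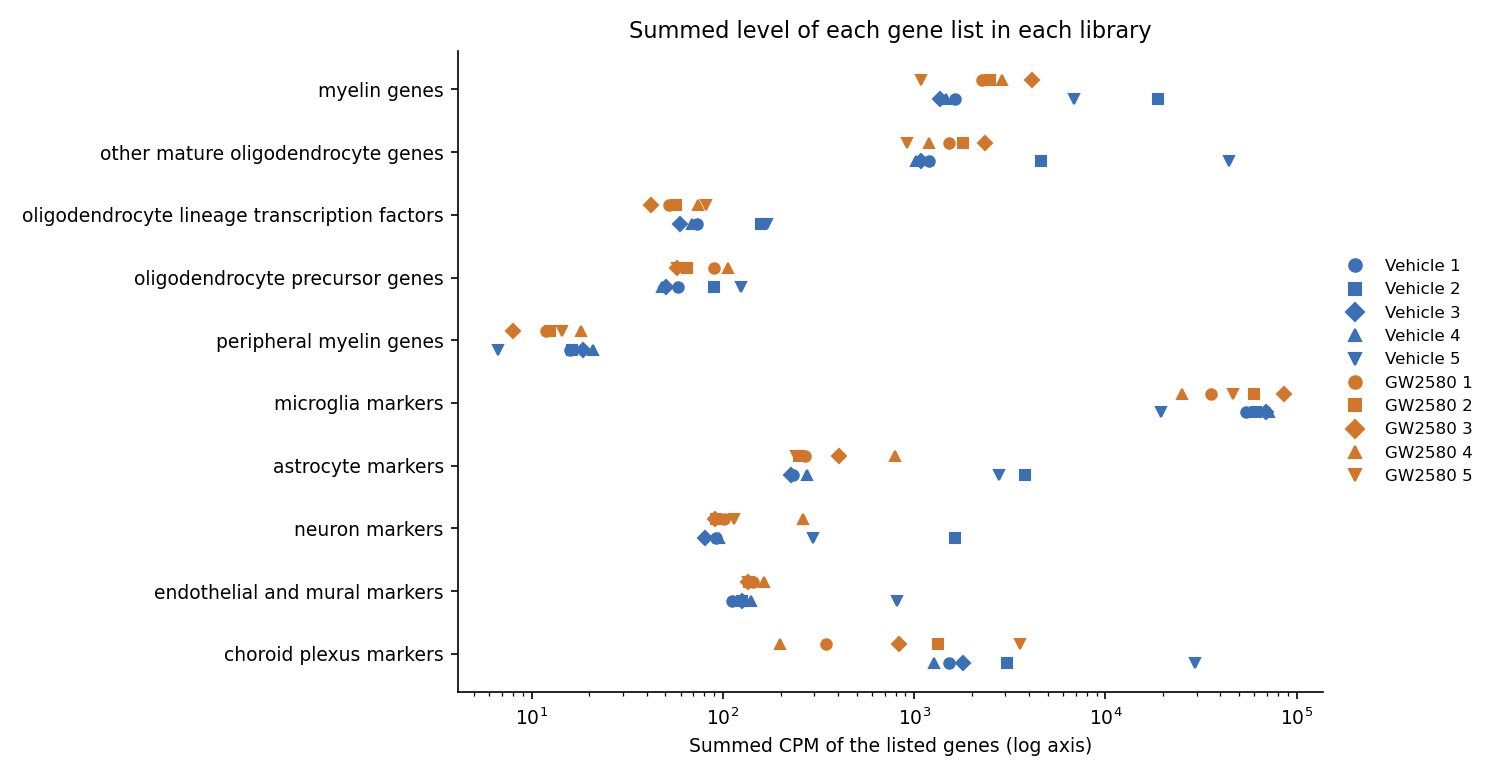
Summed CPM of the genes of each list in each library, on a log axis, with vehicle libraries in blue and GW2580 libraries in orange. Vehicle 2, Vehicle 5 and GW2580 4 lead in the astrocyte and neuron lists, Vehicle 5 leads in the choroid plexus list at 29514 CPM, and the peripheral myelin list stays between 6.63 and 20.8 CPM.

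The genes most like the members were sought among 14786 genes with a mean of at least 5 CPM, by the Pearson r of log2 CPM with the mean log2 CPM of the 9 members over the 10 libraries. Of the 10 highest, 9 are named: Tubb4a (0.98), Csrp1 (0.98), Pfn2 (0.98), Cyp2j9 (0.97), Ube2e2 (0.97), Plpp3 (0.97), Sox2 (0.96), Hepacam (0.96) and Adk (0.96). Tubb4a was at 185 CPM in Vehicle 2, 277 CPM in Vehicle 5 and a median of 11.9 CPM. Without Vehicle 2 and Vehicle 5 these 9 values were between 0.75 and 0.93. Each member's own correlation with the mean of the other 8 was 0.93 for Mal and Ermn, 0.91 for Mobp, 0.90 for Mbp, 0.84 for Cnp, 0.77 for Mog, 0.74 for Cldn11, 0.60 for Mag and 0.36 for Trf. Without the pair of libraries it was highest for Ermn (0.79) and Mbp (0.75), 0.05 for Mag, 0.40 for Trf and −0.34 for Cldn11.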

How the data were processed

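RNA from 10 libraries of CD11b selected mouse microglia was sequenced as read pairs. The authors aligned the pairs with STAR to GRCm38 and deposited, for each library, raw fragment counts per RefSeq gene and counts of unassigned records. Per the file headers, featureCounts 1.6.3 counted fragments on exons without regard to strand, and pairs that align to more than 1 place were not counted. Records on no annotated exon made up 38.4% to 49.1% with vehicle and 38.7% to 60.1% with GW2580 and were left out. RefSeq symbols were found for 46029 of 46152 genes.

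Groups, sex and replicate numbers came from the labels, which give no batch. As in the study, a gene had to exceed 1 CPM in 3 or more libraries (28419 genes), scaling was by TMM, and edgeR tested treatment alone. The quasi-likelihood F test of edgeR 4.0.16 in R 4.3.3 was used here. The study used another version of R and does not name the kind of edgeR test. Genes were called where the fold change exceeded 2 and the unadjusted p was below 0.05. The standard error is the log2 fold change divided by the square root of F. Single genes were also tested by a two-sided exact permutation test on log2 CPM (prior count of 2), whose smallest p is 0.00794. The counting error of the lowest genes is large. Since the reads carry no molecular identifiers, they do not count molecules independently.

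The members, lists and alternatives, among them the fit without Vehicle 2 and Vehicle 5, were chosen with earlier results of these data known, and the count ratios, the length of Mog on chromosome 17 and the lists and correlations without that pair were added after the values were seen. Members of the other lists are named where called or among the 3 of highest mean CPM, and Plekhb1 and Aif1, Trem2, Gm52337 and Foxd3 also for the reason given beside them. Some genes are not reported here singly. Alternatives were DESeq2 1.42.0, limma-voom (limma 3.58.1), other scalings, filters, thresholds and prior counts, sex, a replicate block, thinned counts and leaving out libraries. The tests were tested on simulated counts. Other values were computed in Python 3.11.15.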

Additional observations from a re-analysis of the deposited data

Results flagged for a closer look

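In 7 of 18 groups of 5 libraries (9 genes in each of the treatments), the highest library stood off from the rest by more than Dixon's 95% critical value. That value assumes normally distributed values and was applied to unlogged CPM, which are skewed (Mbp from 35.1 to 14645 CPM with vehicle). Its nominal rate of 1 in 20 groups is therefore not the chance rate here, and the genes are not independent of each other. Vehicle 2 was set apart for Mbp (14645 CPM) and Mobp (2586 CPM). Vehicle 5 was set apart for Mag (148 CPM) and Trf (3016 CPM). Among the GW2580 libraries, GW2580 4 was set apart for Mbp (1303 CPM) and Mobp (293 CPM), and GW2580 2 for Mog (0.857 CPM, from 13 counts).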

How the results depend on the processing

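The number of all genes called (3046) ranged from 1684 to 4848 when 1 library was left out at a time, and was 4802 with no filter on low counts and 1125 with a mean of at least 5 CPM, where fewer genes were tested. The number of myelin genes called lower (4) was 1 with limma-voom and 1 with library size alone. It was 0 with a mean of at least 5 CPM, 2 with sex in the model and 1 with the replicate number as a block. Without Vehicle 2 and Vehicle 5 it was 0. DESeq2 and no filter on low counts each gave 5, RLE scaling gave 4 and thinned counts gave 3. Of all genes, these settings called 5.66%, 3.08%, 5.59%, 5.37%, 5.27%, 3.42%, 7.48%, 7.08%, 7.44% and 6.53% lower, in the same order. With 1 library left out, the number of myelin genes ranged from 0 (without Vehicle 2) to 5, beside 3.92% to 13.2% of all genes. Library size alone shifted the median gene by 0.23 on the log2 scale and left 36.5% of all genes lower. Directions were reversed for Mbp under the replicate block (0.0059) and, without Vehicle 2 and Vehicle 5, for Mbp (2.15), Mobp (2.06), Ermn (1.18), Mal (0.69), Cnp (0.64) and Mag (0.047), all log2. With 1 library left out at a time, Cnp ran from −0.94 (without GW2580 3) to 0.062 (without Vehicle 5) and Trf from −0.17 (without GW2580 3) to 0.57 (without Vehicle 5). Apart from the fits with fewer libraries or genes, the cause was not tested. Cldn11 could not be tested without Vehicle 1, Vehicle 2 or Vehicle 5, the libraries through which it passed the filter, so its calls elsewhere say nothing of its stability. Replicate numbers did not pair the samples: deviations of same-numbered libraries correlated between −0.39 and 0.13, and none correlated best with its own number. Depth limits Mog (1 to 26 counts) and Cldn11 (4 to 84 counts). No permutation test changed its side of the threshold.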

Other observations

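The ratio of Mag to Tmem119 counts was lower in all 5 GW2580 libraries (0.00591 to 0.00984) than in all 5 vehicle libraries (0.0102 to 0.0545). The exact permutation p was 0.00794, the smallest that 5 against 5 allows, and 0.111 after Benjamini-Hochberg adjustment over the 14 ratios computed. Of all genes tested, 4.3% were below in the same way when divided by Tmem119. Against the summed counts of the microglia markers, Mag ran from 0.000600 to 0.00111 with GW2580 and from 0.000602 to 0.00758 with vehicle, and the groups overlapped (exact permutation p = 0.897). Tmem119 itself was at 5929 ± 3765 CPM with GW2580 and 3473 ± 673 CPM with vehicle (SD, n = 5 each).

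The genes closest to single members were looked up after the values were seen. The log2 CPM of Mag was closest to that of Ppif, Pgrmc1 and Nsdhl (r = 0.99 each), and that of Trf to Rdh11, Nucb1 and Naa60 (r = 0.99 each), over 10 libraries. Mbp was closest to Mobp and Plekhb1 (r = 0.996 each) and then to Aldoc (r = 0.98), an astrocyte enzyme that was at 2509 CPM in Vehicle 2 and 519 CPM in Vehicle 5.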
